A study of Homo sapiens with 30 samples.

Results

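The response of 2 colorectal cancer cell lines to loss of the acetyltransferase TIP60 was compared gene by gene, to find which genes moved differently, which moved in opposite directions and which moved alike. The response of a line was the log2 fold change with the siRNAs siTIP60-2 and siTIP60-11, averaged, over siControl. The difference between lines was the HCT116 response minus the SW480 response. The comparison used 18 of the 30 libraries of the series and 16774 genes that had enough counts to be tested.

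HCT116 and SW480 are established epithelial lines from human colorectal cancers, and each was transfected with siTIP60-2, siTIP60-11 or siControl, with 3 libraries per group. Every group, the controls included, received 10 nM siRNA with Lipofectamine RNAiMAX and was harvested after 48 hours. HCT116 grew in McCoy's 5A Modified Medium and SW480 in Leibovitz's L-15, so that line and medium cannot be told apart in any difference given here. A directional kit turned 100 ng of total RNA per sample into libraries, which were read as single ends of 60 bases. The remaining 12 libraries, of BRD8 depletion, entered only an alternative fit. The lines differ in known driver genes of the WNT pathway: HCT116 has a mutated CTNNB1 and SW480 a truncated APC.

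TIP60, encoded by KAT5, is the catalytic subunit of a chromatin complex that acetylates histones H4 and H2A and takes part in exchanging the histone variant H2A.Z. The complex is recruited by sequence-specific factors, among them MYC and beta-catenin with its TCF partners, and also serves DNA repair. Its deletion is lethal to mouse embryos, and lowered levels have been reported in several human cancers, colorectal ones among them.

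KAT5 itself fell in both lines. It had 3.50, 3.55 and 3.58 CPM (library-scaled counts, the unit used throughout) with siTIP60-2 and 4.96, 4.71 and 4.66 CPM with siTIP60-11, against 47.8, 46.4 and 49.8 CPM with siControl in HCT116. In SW480 it had 3.74, 3.34 and 2.28 CPM with siTIP60-2 and 5.13, 5.67 and 5.41 CPM with siTIP60-11, against 36.9, 40.3 and 37.7 CPM with siControl. Every depleted library lay far below every control library of its line. The responses were −3.54 ± 0.0732 in HCT116 and −3.22 ± 0.0894 in SW480 (log2 ± SE, here and below), and their difference of −0.32 ± 0.127 had an adjusted p of 0.0557 in edgeR's quasi-likelihood test, with a 95% interval of −0.58 to −0.06. The difference was −0.14 with siTIP60-2 and −0.50 with siTIP60-11, and across the other settings tried its adjusted p ran between 0.0176 and 0.241. An SE given here reflects the spread of libraries within groups and leaves out any disagreement between the 2 siRNAs.

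HCT116 libraries held 13.4 to 17.8 M counts (M, mega) and SW480 libraries 7.07 to 10.5 M, and the median SE of a response over all genes tested was 0.0857 in HCT116 and 0.105 in SW480. Depleted SW480 libraries were also deeper than their controls (8.41 to 10.5 M against 7.07 to 7.69 M). One library stood apart: in HCT116 control replicate 2 ribosomal protein genes took 8.92% of counts, against 6.34% to 7.53% in the other HCT116 libraries. Mitochondrial genes took 2.35 ± 0.195% and 2.94 ± 0.185% of counts with siTIP60-2 and siTIP60-11 in HCT116, against 1.61 ± 0.0516% in control, and 2.86 ± 0.0529% and 4.17 ± 0.146% in SW480, against 2.74 ± 0.0570% in control (SD, n = 3 each).

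A gene was counted as risen or fallen in a line where both siRNAs moved it that way and the weaker of the 2 tests passed at 0.05 after Benjamini-Hochberg adjustment over all genes. By this rule 4403 genes moved in HCT116 (26.2% of those tested), 2204 up and 2199 down (13.1% each), and 3435 in SW480 (20.5%), 1963 up (11.7%) and 1472 down (8.78%). The lists overlapped in part: 804 genes rose in both lines, 36.5% of those that rose in HCT116 and 41.0% of those that rose in SW480. Another 671 fell in both, 30.5% of the HCT116 list and 45.6% of the SW480 list. The response itself differed between lines for 5348 genes (31.9% of those tested, adjusted p under 0.05), being higher in HCT116 for 2308 (13.8%) and lower for 3040 (18.1%). For 2244 genes (13.4%) the difference held for each siRNA on its own, higher in HCT116 for 982 (5.85%) and lower for 1262 (7.52%). On log2(TPM + 1), with limma, 882 genes were higher and 3948 lower in HCT116, so that 18.3% of the differing genes were on the higher side, against 43.2% for the counts above. That scale moved the median difference over all genes by −0.13 (log2). With DESeq2 2481 genes were higher and 2432 lower (50.5% on the higher side). With RLE size factors 2653 were higher and 2686 lower (49.7%). The balance of higher and lower genes thus depended on the scaling.

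The 2308 genes with a higher response in HCT116 included 769 that rose in HCT116 and were not called in SW480, and 485 that fell in SW480 and were not called in HCT116. Another 173 rose in both, more in HCT116, and 87 fell in both, less in HCT116. Among the 3040 with a lower response, 925 fell in HCT116 only and 719 rose in SW480 only, where "only" means called in that line with the difference also called. Across all genes tested the responses of the lines had a Pearson correlation of 0.283 and a Spearman correlation of 0.386; genes are not independent replicates, and the value is a description. The median response was −0.0049 in HCT116 and 0.06 in SW480, and the median difference −0.06, the level against which each group of genes below is set. Counts of list members with a called difference stand likewise beside 13.8% higher and 18.1% lower over all genes tested. In bulk RNA, fewer cells of a type and less RNA per cell cannot be told apart.

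**Figure D1:**
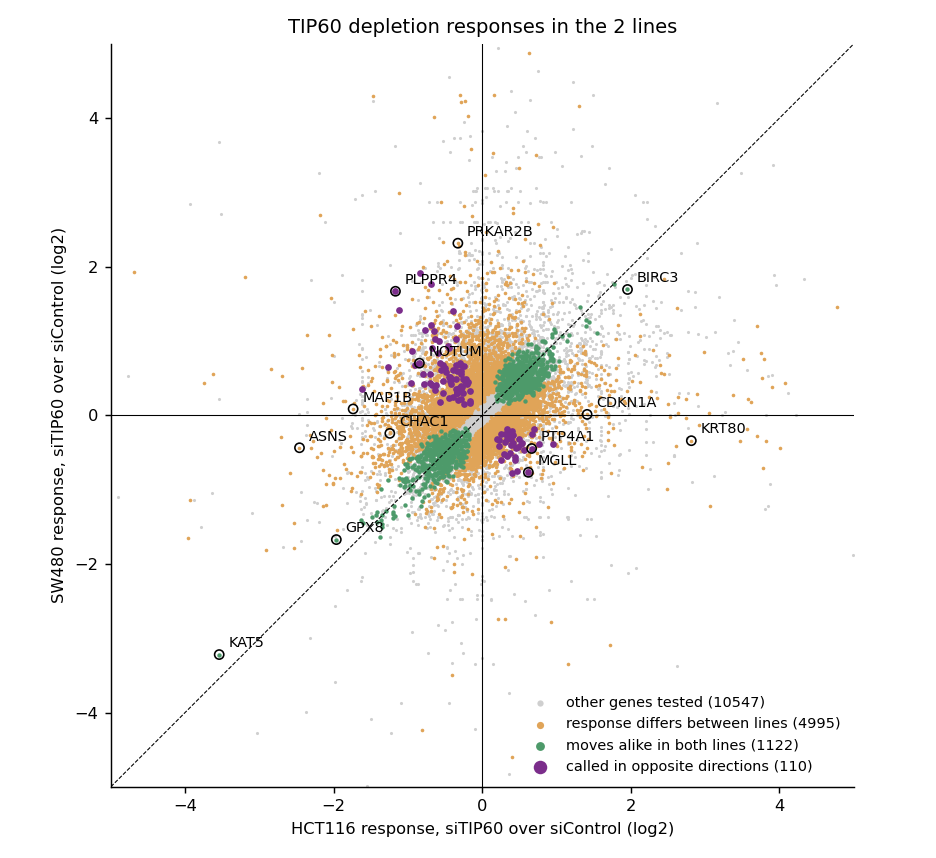
Each point is 1 of the genes tested, with its response to TIP60 depletion in HCT116 on the horizontal axis and in SW480 on the vertical axis (log2 of siTIP60 over siControl). The dashed line marks equal responses, purple points are the 110 genes called in opposite directions, green points the 1122 that moved alike, and orange points 4995 others whose response differed; 26 genes lie outside the axes.

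Reversal was rare. In all, 110 genes (0.656% of those tested) were called in opposite directions in the lines, 37 up in HCT116 and down in SW480 (0.221%) and 73 down in HCT116 and up in SW480 (0.435%). Without HCT116 control replicate 2 the count was 208. The changes were small: the median responses were 0.40 in HCT116 and −0.38 in SW480 for the 37, and −0.44 and 0.51 for the 73, and 2 of the 73, PLPPR4 and the weakly expressed YPEL1, changed at least 2-fold each way, against 0 of the 37. Depleted and control libraries did not overlap in either line for 36 of the 37 and 61 of the 73, where 1.5% of all genes tested had non-overlapping groups in opposite directions. The 110 genes were picked by their calls in each line, so this separation largely follows from that choice.

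Genes that rose in HCT116 and fell in SW480 included the lipase gene MGLL, which breaks down monoacylglycerols. MGLL had 15.8, 15.1 and 16.2 CPM with siTIP60-2 and 14.3, 15.6 and 14.9 CPM with siTIP60-11, against 10.9, 7.93 and 10.7 CPM with siControl in HCT116. SW480 libraries had 25.5, 30.9 and 26.2 CPM with siTIP60-2 and 18.2, 18.6 and 20.4 CPM with siTIP60-11, against 38.3, 38.02 and 40.7 CPM with siControl. Depleted libraries were all above control in HCT116 and all below it in SW480, and the difference between responses was 1.39 ± 0.123 (adjusted p = 9.56e-09). HSPD1 encodes the mitochondrial chaperone HSP60. Its levels were 1915, 1941 and 1966 CPM with siTIP60-2 and 2265, 2184 and 2180.0 CPM with siTIP60-11, against 1505, 1466 and 1483 CPM with siControl in HCT116. They were 1378, 1414 and 1435 CPM with siTIP60-2 and 1513, 1461 and 1534 CPM with siTIP60-11, against 1964, 1976 and 1946 CPM with siControl in SW480. The groups did not overlap in either line, and the difference was 0.91 ± 0.0537 (adjusted p = 1.59e-11).

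Other genes had the same orientation. BAK1, a pore-forming activator of apoptosis at the mitochondrial outer membrane, had a response of 0.44 ± 0.0648 in HCT116 and −0.56 ± 0.0701 in SW480. The tyrosine phosphatase gene PTP4A1 had 0.67 ± 0.0510 and −0.45 ± 0.0564 in the same order. ATF3, a stress-induced transcription factor, stood at 0.40 ± 0.0604 in HCT116 and −0.78 ± 0.0648 in SW480. SUPV3L1, the mitochondrial RNA helicase of the degradosome, stood at 0.45 ± 0.0561 in HCT116 and −0.44 ± 0.0598 in SW480. The actin-associated palladin gene PALLD (0.46 ± 0.0630 in HCT116, −0.75 ± 0.104 in SW480) and UAP1L1 (0.56 ± 0.0750 in HCT116, −0.46 ± 0.0634 in SW480) complete the 8 protein-coding genes of this orientation that ranked first by the smaller of their changes in the lines. PALLD in SW480 stood at −0.35 with siTIP60-2 and −1.15 with siTIP60-11. In each of the 8 the difference was called with each siRNA on its own, and adjusted p-values of the difference lay at or below 7.08e-08. The 8 were picked by opposite calls with both siRNAs and by the size of their changes, so these calls are no separate support.

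Genes that fell in HCT116 and rose in SW480 were led by PLPPR4, a brain-enriched member of the phospholipid phosphatase-related family. PLPPR4 had 1.11, 0.873 and 0.425 CPM with siTIP60-2 and 1.73, 1.57 and 1.64 CPM with siTIP60-11, against 2.33, 2.69 and 2.83 CPM with siControl in HCT116. SW480 cells held 14.1, 13.5 and 13.6 CPM with siTIP60-2 and 25.3, 22.8 and 23.7 CPM with siTIP60-11, against 6.79, 5.996 and 4.19 CPM with siControl. It was scarce in HCT116, yet its groups did not overlap in either line, and the difference was −2.84 ± 0.240 (adjusted p = 4.39e-09). NES, encoding the intermediate filament protein nestin, had 32.1, 32.2 and 33.5 CPM with siTIP60-2 and 16.97, 13.4 and 13.3 CPM with siTIP60-11, against 41.6, 43.5 and 40.7 CPM with siControl in HCT116. The SW480 libraries held 43.8, 45.9 and 27.3 CPM with siTIP60-2 and 38.5, 36.6 and 38.2 CPM with siTIP60-11, against 20.5, 22.5 and 19.8 CPM with siControl. NES groups did not overlap, and the difference was −1.81 ± 0.168 (adjusted p = 1.46e-07).

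The WNT feedback inhibitor NOTUM, a secreted enzyme that removes the lipid from WNT proteins, followed the same orientation. NOTUM had 11.2, 10.9 and 11.4 CPM with siTIP60-2 and 8.54, 8.92 and 8.56 CPM with siTIP60-11, against 18.1, 17.9 and 17.2 CPM with siControl in HCT116. In SW480 it had 34.7, 36.5 and 34.3 CPM with siTIP60-2 and 50.8, 51.9 and 53.7 CPM with siTIP60-11, against 27.01, 23.9 and 28.1 CPM with siControl. The groups did not overlap, and the difference of −1.55 ± 0.0927 had an adjusted p of 1.89e-11. TMEM158, a transmembrane protein gene induced by RAS, had responses of −0.90 ± 0.0851 in HCT116 and 0.68 ± 0.108 in SW480. HAP1, whose product binds huntingtin, had −0.77 ± 0.152 in HCT116 and 1.15 ± 0.160 in SW480, and NRGN, encoding the calmodulin-binding neurogranin, −0.69 ± 0.0847 in HCT116 and 1.22 ± 0.160 in SW480. TBC1D8 (−0.68 ± 0.0559 in HCT116, 0.91 ± 0.0872 in SW480) and the G-protein gamma subunit gene GNG7 (−0.65 ± 0.0762 in HCT116, 1.14 ± 0.172 in SW480) were of this kind too. The siRNAs differed for TBC1D8 in HCT116, at −0.23 with siTIP60-2 and −1.13 with siTIP60-11. SYNPO, encoding the actin-binding synaptopodin, fell by 0.39 ± 0.0720 in HCT116 with an adjusted p of 0.0481, close to the threshold, and rose by 1.41 ± 0.169 in SW480.

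**Figure D2:**
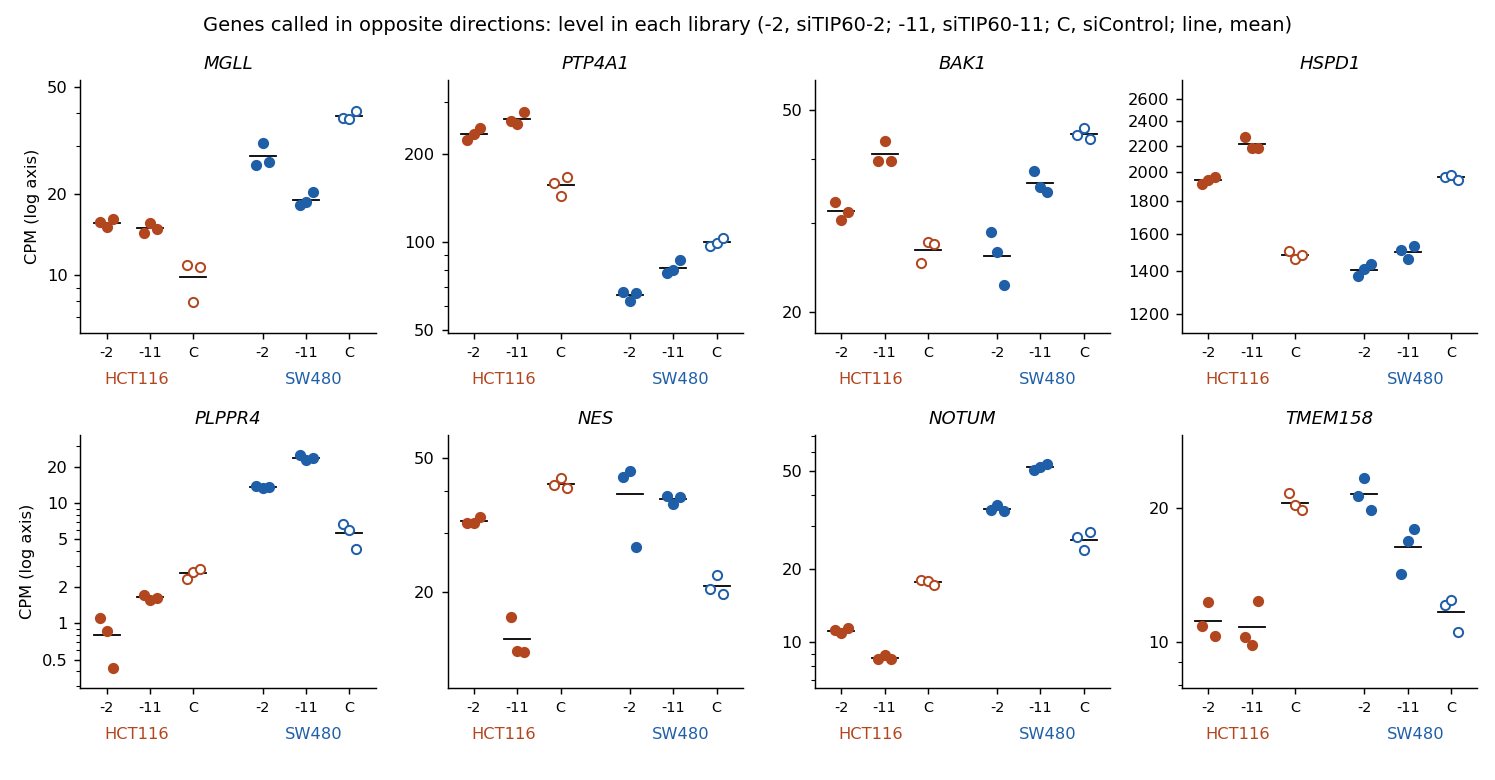
Levels of 8 genes called in opposite directions, in CPM on a log axis, with 1 point per library: filled points are siTIP60-2 and siTIP60-11, open points are siControl (C), and each bar is the mean of 3 libraries. For MGLL, PTP4A1, BAK1 and HSPD1 the filled points lie above the open ones in HCT116 and below them in SW480, and for PLPPR4, NES, NOTUM and TMEM158 the reverse is seen.

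The largest differences toward HCT116 included 2 keratin genes that rose there with both siRNAs. KRT80, KRT13 and LCN2 were all far less abundant in control HCT116 than in control SW480 cells. KRT80, a keratin, had 18.5, 22.5 and 22.9 CPM with siTIP60-2 and 23.9, 24.1 and 21.9 CPM with siTIP60-11, against 3.41, 2.69 and 3.27 CPM with siControl in HCT116. SW480 libraries had 218, 230.3 and 222 CPM with siTIP60-2 and 167, 158 and 173 CPM with siTIP60-11, against 248, 241 and 243 CPM with siControl. The response was 2.81 ± 0.0960 in HCT116 and −0.34 ± 0.0512 in SW480, which was not called with both siRNAs (adjusted p = 0.159), and the difference was 3.16 ± 0.110 (adjusted p = 2.29e-15).

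KRT13, a keratin of stratified epithelia, had the largest difference of the genes with at least 50 counts on average, 4.90 ± 0.182 (adjusted p = 4.61e-15). It stood at 19.9 to 37.9 CPM in depleted HCT116 libraries, against 0.973, 0.598 and 0.555 CPM in control, and at 20.9 to 30.7 CPM in depleted SW480 libraries, against 22.6, 19.8 and 19.8 CPM in control. The levels of depleted HCT116 cells overlapped those of SW480. LCN2, encoding the siderophore-binding lipocalin of mucosal defence, differed by 2.85 ± 0.171, with a response of 2.15 ± 0.161 in HCT116 and −0.70 ± 0.0637 in SW480. In SW480 LCN2 had 99.4 to 113 CPM with siTIP60-2 and 44.9 to 46.8 CPM with siTIP60-11, against 111 to 120.5 CPM in control, so that siTIP60-2 overlapped control. BCL2L15, of the BCL2 family, differed by 2.01 ± 0.315.

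The remaining genes of this rank were near the limit of detection in one line. KRT5, a basal cell keratin, had 14 and 22 counts with siTIP60-2 and siTIP60-11 over 3 libraries each, against 1 in control HCT116 cells, and 483 to 1040.0 CPM over the SW480 libraries. TGFBI, an extracellular matrix protein gene, had 71 and 53 counts against 4 in HCT116, and rose by 0.84 ± 0.0449 in SW480. RBM24, encoding an RNA-binding protein of muscle, had 0 and 6 counts in depleted and 19 in control SW480 cells, and 195 and 654 against 619 in HCT116. ANKRD1, a target of YAP, was called in neither line with both siRNAs (adjusted p = 0.255 in HCT116 and 0.0962 in SW480), although its difference was 2.52 ± 0.408 (adjusted p = 4.03e-05).

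**Figure D3:**
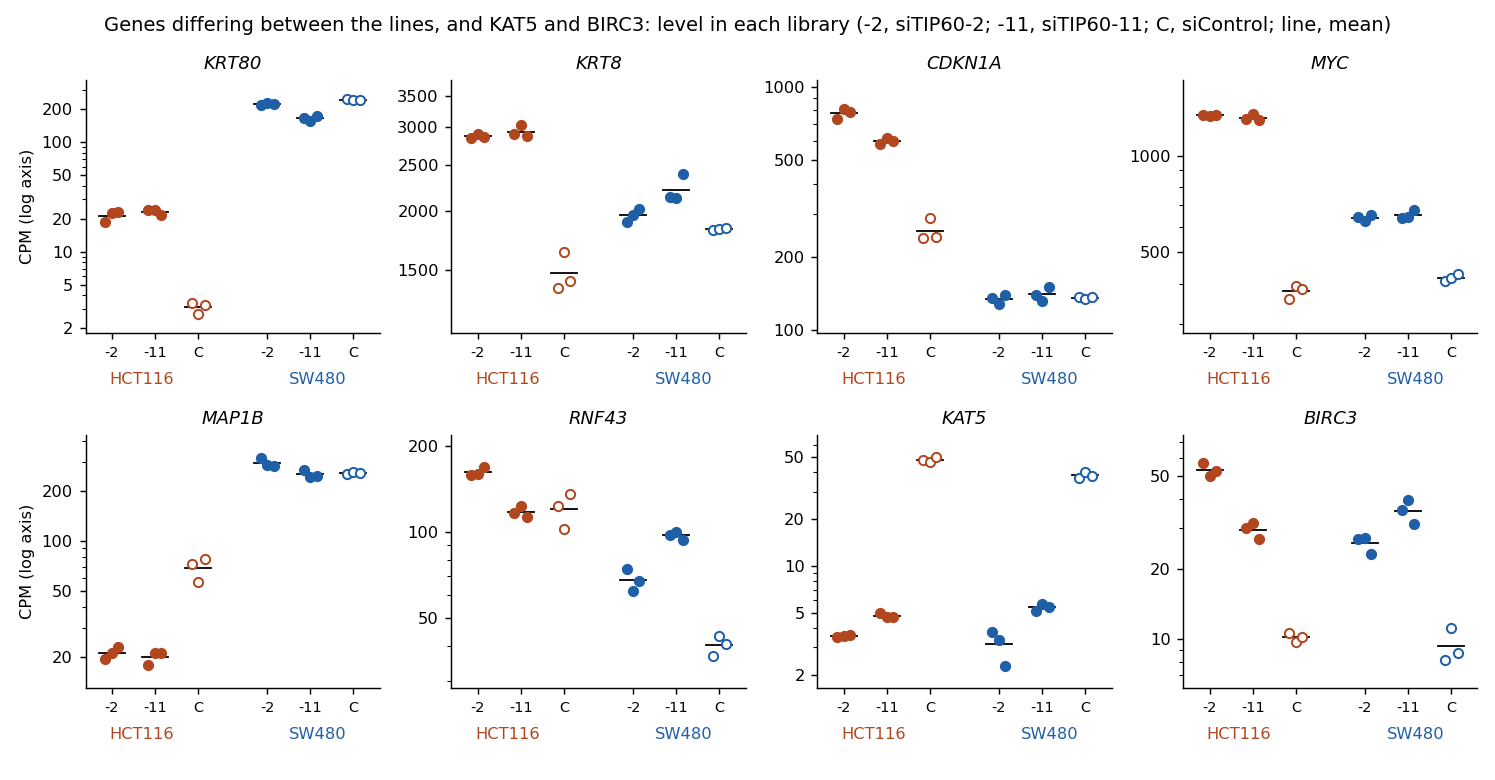
Levels of 8 genes in CPM on a log axis, 1 point per library, drawn as in the plot of genes called in opposite directions. KRT80, KRT8, CDKN1A and MYC responded more in HCT116, MAP1B fell in HCT116 and RNF43 rose in SW480, while KAT5 and BIRC3 moved alike in both lines.

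Keratin genes as a group followed KRT80 and KRT13. Of 13 tested, 10 rose in HCT116 and 3 in SW480, where 1 fell, and 8 had a higher response in HCT116 with none lower (median difference 0.86, against −0.06 over all genes). The 8 were 61.5% of the list, against 13.8% of all genes tested. The simple-epithelial pair KRT8 and KRT18 differed by 0.79 ± 0.0725 (adjusted p = 1.64e-08) and 0.85 ± 0.0790 (adjusted p = 1.75e-08). KRT8 had 2849 to 3030.0 CPM in depleted and 1378, 1638 and 1422 CPM in control HCT116 libraries, and 1895 to 2389 CPM in depleted and 1824, 1830.0 and 1842 CPM in control SW480 libraries. KRT19 rose in both lines and met the rule for moving alike, with 0.76 ± 0.0574 in HCT116 and 0.44 ± 0.0578 in SW480. KRT7 differed by 1.31 ± 0.191 and KRT81, a hair keratin, by 1.72 ± 0.309. The summed level of the 5 epithelial markers EPCAM, CDH1, KRT8, KRT18 and KRT19 was 5952 to 6203 CPM with siTIP60-2 and 5940.0 to 6253 CPM with siTIP60-11, against 3351 to 3977 CPM in control HCT116 cells. In SW480 it was 3813 to 4038 and 4259 to 4793 CPM, against 3976 to 4048 CPM.

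Other genes had a far lower response in HCT116. MAP1B, encoding a microtubule-associated protein of neurons, had 19.5, 21.2 and 23.1 CPM with siTIP60-2 and 17.9, 21.1 and 21.2 CPM with siTIP60-11, against 72.1, 56.2 and 77.6 CPM with siControl in HCT116. The SW480 libraries held 314, 285 and 282 CPM with siTIP60-2 and 266, 243 and 244 CPM with siTIP60-11, against 252, 259.9 and 255 CPM with siControl. Depleted libraries were all low in HCT116, while in SW480 siTIP60-2 lay above control and siTIP60-11 mostly below it, and the difference was −1.82 ± 0.110 (adjusted p = 1.96e-10). PRKAR2B, a regulatory subunit of protein kinase A, rose by 2.32 ± 0.395 in SW480, with 85 and 60 counts with siTIP60-2 and siTIP60-11, against 11 in control, and stood at −0.33 ± 0.0969 in HCT116 (adjusted p = 0.0749). The tyrosine kinase gene FES rose in SW480 (1.79 ± 0.296) and stood at −0.23 ± 0.0957 in HCT116 (adjusted p = 1). TMOD1, which caps actin filaments, fell in HCT116 (−1.19 ± 0.102) and stood at 0.84 ± 0.165 in SW480 (adjusted p = 0.448), and SERPINA5, a protease inhibitor gene with 12 and 7 counts in depleted and 4 in control SW480 cells, fell by 1.66 ± 0.145 in HCT116. KLHDC7B had 10 and 3 counts with siTIP60-2 and siTIP60-11, against 90 in control HCT116 cells, and 1118 and 338 against 1061 in SW480; its sign turned on log2(TPM + 1), to 0.39.

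Genes were counted as moving alike where both lines called them in 1 direction and the 95% interval of the difference stayed within 1.5-fold either way. There were 1122 (6.69% of those tested), 588 up (3.51%) and 534 down (3.18%), or most of the 1475 genes that rose or fell in both lines. A small difference was still called for 243 of them. The antiapoptotic ubiquitin ligase gene BIRC3 rose most: it had 57.02, 50.1 and 52.6 CPM with siTIP60-2 and 29.9, 31.6 and 26.9 CPM with siTIP60-11, against 10.7, 9.72 and 10.2 CPM with siControl in HCT116. In SW480 it had 27, 27.2 and 23.1 CPM with siTIP60-2 and 35.7, 39.4 and 31.3 CPM with siTIP60-11, against 8.12, 11.2 and 8.66 CPM with siControl. The averages agreed to within 0.26 ± 0.153 (interval −0.06 to 0.58), but siTIP60-2 gave more in HCT116 (difference 0.92) and siTIP60-11 more in SW480 (−0.39).

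Closer likeness, with each siRNA, was seen for PSKH1, a serine kinase gene (1.43 ± 0.0723 in HCT116, 1.26 ± 0.0887 in SW480), and for ZSWIM5 (1.40 ± 0.146 in HCT116, 1.29 ± 0.152 in SW480). MRVI1, which acts in nitric oxide signalling to the inositol trisphosphate receptor, rose by 1.31 ± 0.0866 in HCT116 and 1.46 ± 0.0867 in SW480. LFNG, the sugar transferase that modifies NOTCH, rose by 1.16 ± 0.0924 in HCT116 and 1.08 ± 0.135 in SW480. RHOB, a small GTPase gene, and TRIB1, a pseudokinase gene, rose in both lines with small called differences of 0.18 ± 0.0555 and 0.44 ± 0.0654; that of RHOB was not called on either TPM scale, where its sign turned. KIF26B averaged alike (0.01 ± 0.143), although its difference was 0.61 with siTIP60-2 and −0.58 with siTIP60-11. Among the NF-kappaB targets, TNFAIP3 and ICAM1 also moved alike, TNFAIP3 up (0.99 ± 0.117 in HCT116, 1.12 ± 0.151 in SW480) and ICAM1 down (−0.76 ± 0.0883 in HCT116, −0.67 ± 0.0724 in SW480). Of the 16 NF-kappaB genes tested, 4 rose and 2 fell in HCT116, and 4 rose and 1 fell in SW480. Over all genes tested, 13.1% rose and 13.1% fell in HCT116, and 11.7% rose and 8.78% fell in SW480.

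Among genes that fell alike, RBBP4 encodes a histone-binding subunit of several chromatin complexes. RBBP4 had 90.1, 86.4 and 84.5 CPM with siTIP60-2 and 104, 96.2 and 98.6 CPM with siTIP60-11, against 248, 236 and 235 CPM with siControl in HCT116. SW480 libraries had 68.8, 68.8 and 81.7 CPM with siTIP60-2 and 81.7, 86.9 and 70.6 CPM with siTIP60-11, against 207, 204 and 199.8 CPM with siControl. All groups were separated, and the difference was 0.05 ± 0.0808 (interval −0.12 to 0.22). SEC24D, a coat protein gene of vesicles leaving the endoplasmic reticulum, was as close, at −1.41 ± 0.0594 in HCT116 and −1.44 ± 0.0649 in SW480 (interval of the difference −0.16 to 0.21). CCPG1, an autophagy receptor of the endoplasmic reticulum, fell by 1.48 ± 0.108 in HCT116 and fell by 1.37 ± 0.0877 in SW480. GPX8, a peroxidase of the same compartment, and NUCB2, which encodes the precursor of nesfatin, fell in both lines with differences of −0.29 ± 0.103 and 0.26 ± 0.0917, whose calls were lost in 14 and 12 of 28 alternatives. GFPT1, the first enzyme of hexosamine synthesis, and BEX2 averaged alike, but their differences changed sign between siRNAs (−0.54 with siTIP60-2 and 0.22 with siTIP60-11 for GFPT1, −1.01 and 0.55 for BEX2).

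**Figure D4:**
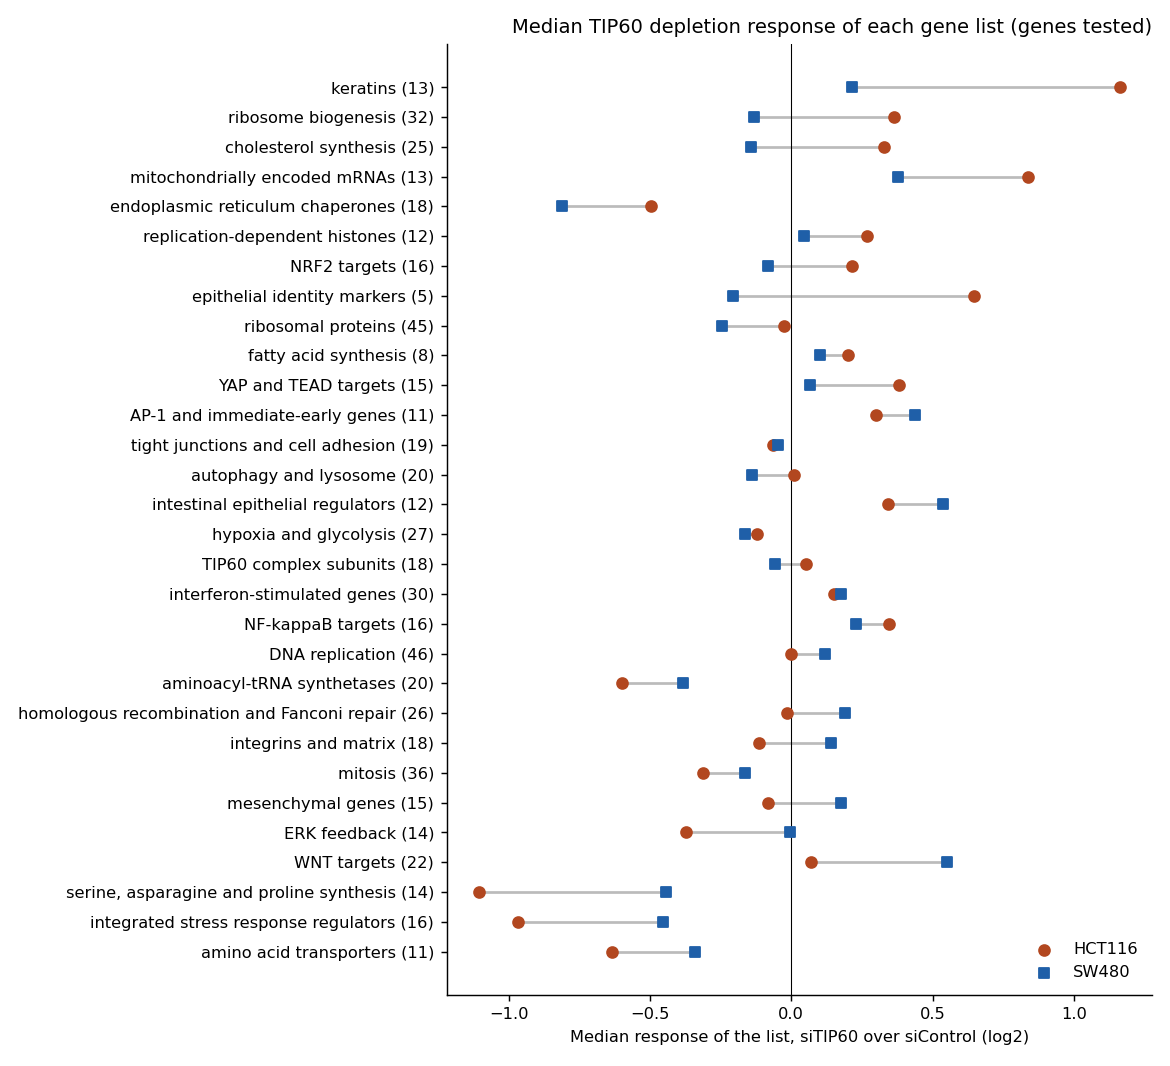
Median response of gene lists with at least 5 genes tested, in HCT116 (circles) and in SW480 (squares), in log2 of siTIP60 over siControl, with lists ordered by their median difference. Keratins, ribosome biogenesis and cholesterol synthesis lie at the end with higher HCT116 responses, and amino acid transporters, stress regulators and serine, asparagine and proline synthesis at the other end.

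Most genes of amino acid supply fell in HCT116, and many fell less or were not called in SW480. Many of them are known targets of ATF4, the transcription factor of the integrated stress response, which binds C/EBP-ATF response elements. Of 14 genes for serine, asparagine and proline synthesis, 11 fell in HCT116 and 6 in SW480, and 6 had a lower response in HCT116 with none higher (median responses −1.11 in HCT116 and −0.44 in SW480). Of 16 regulators of the response, 11 fell and 2 rose in HCT116 and 7 fell in SW480, with 10 lower and 3 higher in HCT116 (median difference −0.55). Of 11 amino acid transporter genes, 8 fell and 1 rose in HCT116, 5 fell and 2 rose in SW480, and 9 were lower and 1 higher in HCT116 (median difference −0.81). Of 20 aminoacyl-tRNA synthetase genes, 11 fell and 4 rose in HCT116, 11 fell and 1 rose in SW480, and 10 were lower and 5 higher in HCT116 (median difference −0.13). The median difference of the 14 synthesis genes was −0.49, against −0.06 over all genes. Shares lower in HCT116 were 42.9% (synthesis), 62.5% (regulators), 81.8% (transporters) and 50% (synthetases), against 18.1% of all genes tested. Shares higher there were 0%, 18.8%, 9.09% and 25% in that order, against 13.8%.

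ASNS encodes the asparagine synthetase. It had 182, 249 and 202 CPM with siTIP60-2 and 92.6, 125 and 98.7 CPM with siTIP60-11, against 802, 851 and 809 CPM with siControl in HCT116. SW480 cells held 677, 693 and 720.1 CPM with siTIP60-2 and 703, 694 and 719 CPM with siTIP60-11, against 951, 936 and 958 CPM with siControl. Control levels were similar in the lines, all depleted libraries were below control, and the responses differed by −2.02 ± 0.119 (adjusted p = 9.81e-10). PHGDH, the first enzyme of serine synthesis, had responses of −2.27 ± 0.0833 in HCT116 and −0.35 ± 0.0865 in SW480. PSAT1, the next enzyme, stood at −1.74 ± 0.0605 in HCT116 and −0.49 ± 0.0623 in SW480, and the mitochondrial carboxykinase gene PCK2 at −2.04 ± 0.127 in HCT116 and −0.20 ± 0.138 in SW480. The SW480 response was not called for PSAT1 (adjusted p = 0.564) or PCK2 (adjusted p = 0.578).

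ATF4 mRNA itself changed less: 440.2 to 664 CPM in depleted and 757, 826 and 739 CPM in control HCT116 cells, and 552 to 615 CPM in depleted and 636, 648 and 634 CPM in control SW480 cells. The ATF4 response was −0.52 ± 0.0469 in HCT116 and −0.13 ± 0.0482 in SW480, with a difference of −0.39 ± 0.0680 (adjusted p = 8.36e-05). DDIT3, also called CHOP and induced in stress, fell in both lines, by 2.14 ± 0.0619 in HCT116 and by 1.22 ± 0.0529 in SW480. TRIB3, a pseudokinase induced by ATF4, stood at −2.002 ± 0.0957 in HCT116 and −0.48 ± 0.0930 in SW480 (adjusted p = 0.139). The cystine transporter gene SLC7A11 fell by 2.01 ± 0.0927 in HCT116 and by 0.92 ± 0.111 in SW480, and SLC1A4, a transporter of neutral amino acids, fell by 2.31 ± 0.0851 in HCT116 and by 0.44 ± 0.0687 in SW480. The cysteinyl-tRNA synthetase gene CARS1 fell by 1.69 ± 0.0469 in HCT116 and by 0.82 ± 0.0498 in SW480. ATF3, on the same list, went against it, as given among the reversed genes.

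The size of these differences depended on the siRNA. The median difference of the stress regulators was −0.22 with siTIP60-2 and −0.68 with siTIP60-11. CHAC1, a glutathione-degrading enzyme gene, had 53.5, 70.1 and 64.5 CPM with siTIP60-2 and 16.97, 21.9 and 17.5 CPM with siTIP60-11, against 80.8, 82.6 and 80.6 CPM in control HCT116 cells, and its difference between lines was −0.13 with siTIP60-2 and −1.87 with siTIP60-11. DDIT4, an inhibitor of mTORC1, gave −0.29 and −1.66 in the same order. Within the siTIP60-2 group of HCT116, replicate 2 was the highest for ASNS, PHGDH, CHAC1 and DDIT4. KAT5 was slightly lower with siTIP60-2 than with siTIP60-11 in both lines.

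Endoplasmic reticulum chaperone genes showed the opposite order: most fell in both lines, and further in SW480. Of 18 tested, 13 fell in HCT116 and 17 in SW480, and none rose. The difference was called for 16, all toward a smaller fall in HCT116, and 8 moved alike by the 1.5-fold rule (median responses −0.49 in HCT116 and −0.81 in SW480, median difference 0.34). The 16 were 88.9% of the list, where 13.8% of all genes tested had a higher response in HCT116. HSPA5, the chaperone BiP, had 1117, 1286 and 1263 CPM with siTIP60-2 and 1134, 1135 and 1115 CPM with siTIP60-11, against 1699, 1857 and 1767 CPM with siControl in HCT116. The SW480 libraries held 1207, 1249 and 1285 CPM with siTIP60-2 and 845, 808 and 856 CPM with siTIP60-11, against 2227, 2255 and 2192 CPM with siControl. Depleted libraries were below control in both lines, and the difference was 0.53 ± 0.0655 (adjusted p = 1.3e-06).

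DNAJB9, a cochaperone of BiP, fell by 1.29 ± 0.0671 in SW480 and stood at −0.13 ± 0.0775 in HCT116 (adjusted p = 0.981), a difference of 1.16 ± 0.103 (adjusted p = 1.01e-08). It had 44.7, 51.5 and 48.03 CPM with siTIP60-2 and 52.8, 53.95 and 47.05 CPM with siTIP60-11, against 131, 107 and 125 CPM in control SW480 cells, while HCT116 libraries overlapped between 18.4 and 24.2 CPM. CALR, the lectin chaperone calreticulin, fell by 0.52 ± 0.0377 in SW480 and stood at 0.15 ± 0.0381 in HCT116 (adjusted p = 0.959). SDF2L1 and DNAJB11, further cofactors of BiP, differed by 0.68 ± 0.131 and 0.57 ± 0.0684, and the disulphide isomerase gene PDIA4 by 0.58 ± 0.0539. HSP90B1, the chaperone GRP94, and XBP1, the transcription factor that drives many of these genes, fell in both lines and met the rule for moving alike, with differences of 0.37 ± 0.0567 and 0.20 ± 0.0744.

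**Figure D5:**
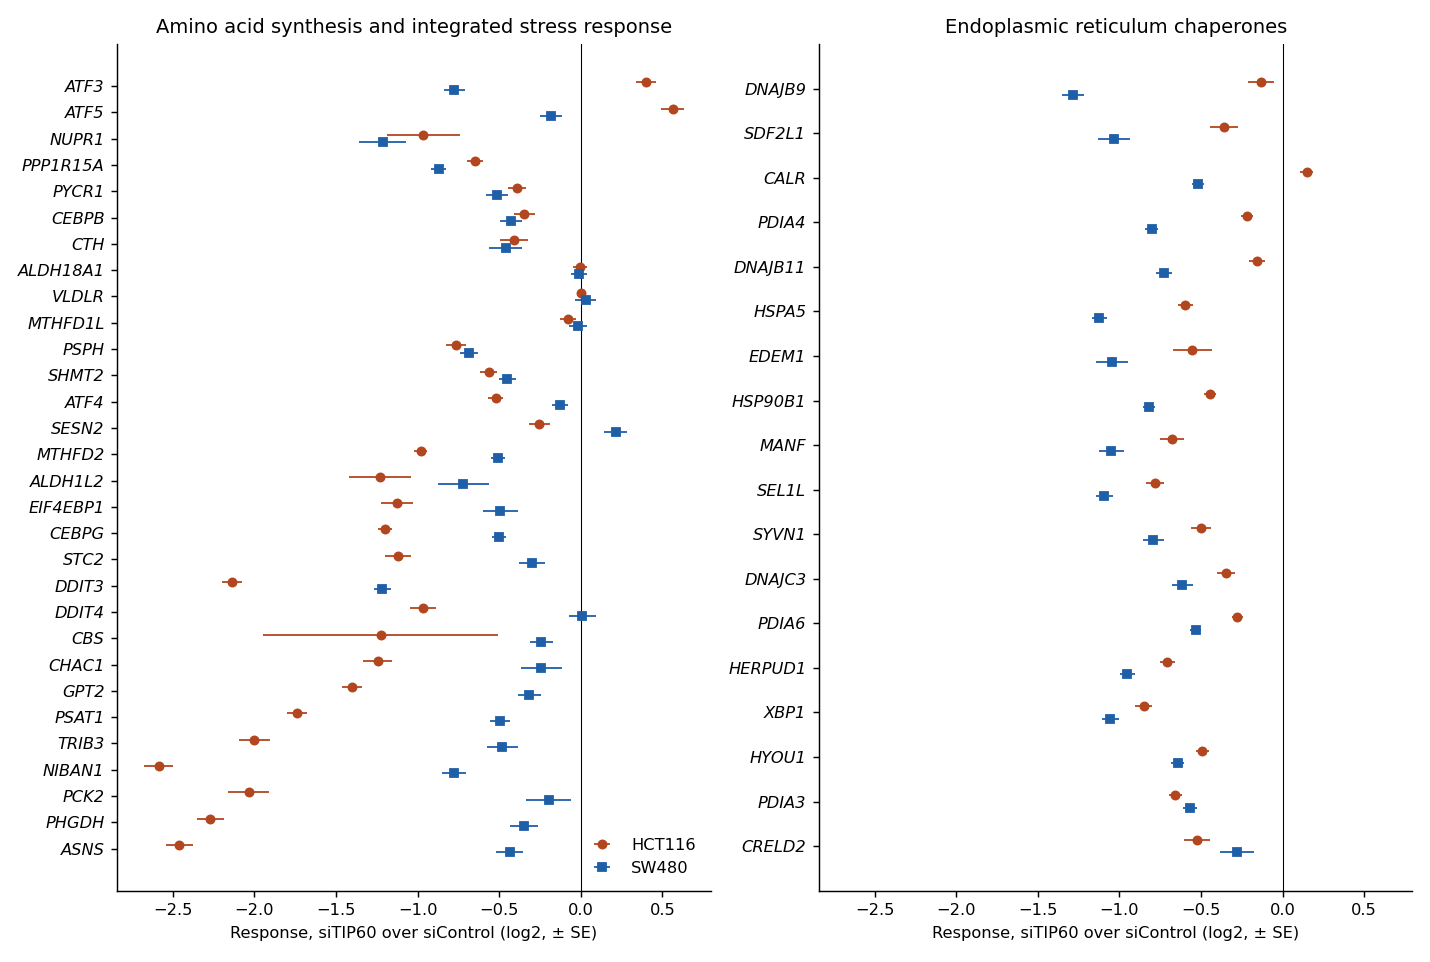
Responses to TIP60 depletion, in log2 of siTIP60 over siControl ± SE, of genes of amino acid supply and the integrated stress response and of endoplasmic reticulum chaperone genes, in HCT116 and in SW480. ASNS, PHGDH and TRIB3 lie further below 0 in HCT116, whereas HSPA5, DNAJB9 and CALR lie further below 0 in SW480.

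Short motifs near the starts of these genes were looked up in RefSeq promoter windows of GRCh38.p14, each from 250 bases before to 50 bases after a start. The endoplasmic reticulum stress element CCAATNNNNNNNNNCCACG, searched on both strands, was in 6 of the 17 chaperone genes with a window (35.3%), in none of the amino acid lists and in 0.149% of 11376 tested genes with a window. The C/EBP-ATF element TGATGNAAN was in 7 of 16 synthetase genes (43.8%), 5 of 10 transporter genes (50%), 3 of 14 stress regulators (21.4%), 2 of 9 synthesis genes (22.2%) and 1 of 17 chaperone genes (5.88%), against 2.74% of the tested genes. The stress element ends in letters that the E-box searched further on can share, and matches to each motif were counted separately. Stretches of 100 bases around the element are shown for 2 genes with a lower response in HCT116 and for 3 with a higher one, to set the elements side by side, with the matched element in capitals on whichever strand it lies. The first base of the element lies 68 bases before the start in ASNS, 210 in CHAC1, 66 in HSPA5, 225 in CALR and 194 in HSP90B1. A match is a description of the letters and not evidence of binding. ASNS is at chr7:97872423-97872522 (minus strand), CHAC1 at chr15:40953221-40953320 (plus), HSPA5 at chr9:125241351-125241450 (minus), CALR at chr19:12938359-12938458 (plus) and HSP90B1 at chr12:103930175-103930274 (plus).
ASNS: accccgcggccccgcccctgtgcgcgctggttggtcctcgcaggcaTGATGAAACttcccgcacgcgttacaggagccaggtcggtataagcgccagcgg
CHAC1: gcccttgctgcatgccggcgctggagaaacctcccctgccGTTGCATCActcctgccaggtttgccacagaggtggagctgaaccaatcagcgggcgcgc
HSPA5: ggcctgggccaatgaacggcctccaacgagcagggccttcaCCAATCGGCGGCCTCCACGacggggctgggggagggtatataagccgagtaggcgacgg
CALR: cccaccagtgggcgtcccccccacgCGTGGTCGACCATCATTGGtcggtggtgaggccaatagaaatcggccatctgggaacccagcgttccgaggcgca
HSP90B1: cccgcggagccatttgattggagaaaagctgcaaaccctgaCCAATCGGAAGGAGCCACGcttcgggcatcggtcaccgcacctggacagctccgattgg

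CDKN1A, the cyclin-dependent kinase inhibitor p21, had 736, 812 and 789.5 CPM with siTIP60-2 and 584, 614 and 596 CPM with siTIP60-11, against 239.5, 288 and 243 CPM with siControl in HCT116. In SW480 it had 136, 128 and 139 CPM with siTIP60-2 and 139.7, 132 and 151 CPM with siTIP60-11, against 136, 135 and 137 CPM with siControl. The SW480 groups overlapped, and the difference was 1.40 ± 0.0808 (adjusted p = 1.2e-11). PLK2, a polo-like kinase, rose in both lines, by 2.13 ± 0.0518 in HCT116 and 0.44 ± 0.0601 in SW480. BAX, an apoptosis effector, and AEN, an apoptosis-enhancing nuclease, rose in HCT116 by 0.72 ± 0.0722 and 0.81 ± 0.0507 and stood at −0.21 ± 0.0823 (adjusted p = 0.395) and −0.08 ± 0.0515 (adjusted p = 1) in SW480. SFN, the cell cycle inhibitor stratifin, differed by 0.76 ± 0.0869. MDM2, a ubiquitin ligase, stood at −0.22 ± 0.0712 in HCT116 (adjusted p = 1) and fell by 0.81 ± 0.103 in SW480.

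WNT targets more often rose in SW480, and lay on both sides of 0 in HCT116. Of 22 tested, 4 rose and 2 fell in HCT116 and 14 rose and 1 fell in SW480, and 10 had a lower and 4 a higher response in HCT116 (median responses 0.07 in HCT116 and 0.55 in SW480, median difference −0.48). The shares were 45.5% lower and 18.2% higher, against 18.1% and 13.8% of all genes tested. APCDD1, LEF1, DKK4 and PROX1 had no counts in HCT116, and over the 18 with counts in both lines the median difference was −0.45. The feedback inhibitors NOTUM, NKD1 and RNF43 lay on the lower side. NKD1, an inhibitor that binds Dishevelled, had 20.3, 19.5 and 20.8 CPM with siTIP60-2 and 15.9, 18.7 and 18.9 CPM with siTIP60-11, against 25.5, 19.97 and 26.7 CPM with siControl in HCT116. SW480 libraries had 331, 324 and 313 CPM with siTIP60-2 and 392, 398 and 386 CPM with siTIP60-11, against 176, 169.7 and 176 CPM with siControl. NKD1 was called in opposite directions, although siTIP60-2 overlapped the lowest control in HCT116, whereas every depleted SW480 library lay far above control, with a difference of −1.39 ± 0.0918 (adjusted p = 8.52e-11). RNF43, a ligase that removes WNT receptors, rose by 1.02 ± 0.0833 in SW480 and stood at 0.19 ± 0.0658 in HCT116, where siTIP60-2 lay above all controls and siTIP60-11 among them. AXIN2, the scaffold of the destruction complex, rose in both lines (0.62 ± 0.0654 in HCT116, 0.96 ± 0.0547 in SW480).

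MYC and BMP4, also counted as WNT targets, rose in both lines and more in HCT116. MYC, the growth-promoting transcription factor, had 1336, 1327 and 1341 CPM with siTIP60-2 and 1303, 1343 and 1293 CPM with siTIP60-11, against 359, 394 and 385 CPM with siControl in HCT116. SW480 cells held 642, 626 and 652 CPM with siTIP60-2 and 641, 644 and 679 CPM with siTIP60-11, against 408, 415 and 427 CPM with siControl. Control levels were alike in the lines, the siRNAs agreed closely, and the difference was 1.17 ± 0.0582 (adjusted p = 8.33e-13). BMP4, a secreted growth factor, rose by 2.30 ± 0.0470 in HCT116 and 0.89 ± 0.0539 in SW480, with a difference of 1.41 ± 0.0697. CDX2, the intestinal homeobox factor, rose by 1.29 ± 0.0760 in SW480 and stood at 0.12 ± 0.0667 in HCT116 (adjusted p = 0.468), whereas the epithelial factors KLF5 and ELF3 responded more in HCT116, by 0.76 ± 0.0753 and 0.68 ± 0.163.

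Ribosome biogenesis genes, many of them known MYC targets, responded more in HCT116. Of 32 tested, 16 rose and none fell in HCT116, 4 rose and 5 fell in SW480, and 29 had a higher response in HCT116 with none lower (median responses 0.36 in HCT116 and −0.13 in SW480, median difference 0.44). The 29 were 90.6% of the list, against 13.8% of all genes tested. UTP4, a subunit of the small-subunit processome, had 148, 148 and 149 CPM with siTIP60-2 and 182, 176 and 191 CPM with siTIP60-11, against 105, 103 and 112 CPM with siControl in HCT116. The SW480 libraries held 107, 101 and 110.4 CPM with siTIP60-2 and 113, 112 and 115 CPM with siTIP60-11, against 120.5, 120.2 and 125 CPM with siControl. Depleted libraries were above control in HCT116 and below it in SW480, where the response was not called (−0.15 ± 0.0455, adjusted p = 0.215), and the difference was 0.78 ± 0.0624 (adjusted p = 2.01e-09). GNL3, the nucleolar GTPase nucleostemin, fell by 0.63 ± 0.0516 in SW480 and stood at 0.19 ± 0.0492 in HCT116. PNO1, NOP16 and PES1, assembly factors of either subunit, differed by 0.77 ± 0.0742, 0.71 ± 0.0974 and 0.69 ± 0.0757, and DDX21, a nucleolar helicase gene, by 0.41 ± 0.0641.

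The E-box CACGTG, the letters recognised by MYC with MAX and by other factors, was in 14 of the 26 ribosome biogenesis genes with a window (53.8%), against 12.4% of tested genes with a window, 1 of 16 synthetase genes (6.25%) and 3 of 17 chaperone genes (17.6%). It was also in 4 of 10 transporter genes (40%), 2 of 9 synthesis genes (22.2%) and 1 of 14 stress regulators (7.14%). These 3 lists had lower median responses in HCT116, and their shares rest on few genes. Whether the E-box goes with the response gene by gene was not tested. None of the ribosome biogenesis windows held the C/EBP-ATF element. The 100 bases before the start are shown for UTP4, at chr16:69132549-69132648 (plus strand), and DDX21, at chr10:68956547-68956646 (plus), with the E-box in capitals.
UTP4: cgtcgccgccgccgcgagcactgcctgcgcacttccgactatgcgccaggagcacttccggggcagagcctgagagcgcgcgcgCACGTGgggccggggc
DDX21: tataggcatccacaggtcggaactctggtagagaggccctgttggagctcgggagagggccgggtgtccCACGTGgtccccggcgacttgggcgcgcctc

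Cholesterol synthesis genes differed in the same direction. Of 25 tested, 8 rose and none fell in HCT116, 2 rose and 8 fell in SW480, and 18 had a higher and 1 a lower response in HCT116 (median difference 0.44, at 0.74 with siTIP60-2 and 0.14 with siTIP60-11). The shares were 72% higher and 4% lower, against 13.8% and 18.1% of all genes tested. With each siRNA, 7 were higher and none lower. MSMO1, the sterol C4 methyl oxidase, and HSD17B7, a sterol ketoreductase, were called in opposite directions. MSMO1 had responses of 0.67 ± 0.0496 in HCT116 and −0.24 ± 0.0469 in SW480, and HSD17B7 had 0.38 ± 0.0986 in HCT116 and −0.51 ± 0.0901 in SW480. The HCT116 response of MSMO1 was 1.16 with siTIP60-2 and 0.17 with siTIP60-11. HMGCS1, which makes HMG-CoA, had 380.3, 332 and 377 CPM with siTIP60-2 and 104, 98.6 and 100.1 CPM with siTIP60-11, against 93.1, 86.3 and 91.03 CPM in control HCT116 cells. The levels with siTIP60-2 stood far above those with siTIP60-11, which lay just above control. FDFT1, the squalene synthase, fell by 0.50 ± 0.0516 in SW480 and stood at 0.39 ± 0.0498 in HCT116 (adjusted p = 0.631). NSDHL differed by 0.82 ± 0.0838.

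ERK feedback genes, which are transcribed when the kinase pathway is active and then restrain it, were lower in HCT116. Of 14 tested, 7 fell and none rose in HCT116, none fell and 1 rose in SW480, and 8 had a lower and 1 a higher response in HCT116 (median responses −0.37 in HCT116 and −0.0047 in SW480, median difference −0.46). The shares were 57.1% lower and 7.14% higher, against 18.1% and 13.8% of all genes tested. SPRY4, a Sprouty inhibitor, had 87.1, 94.7 and 94.5 CPM with siTIP60-2 and 70.6, 72.8 and 70.4 CPM with siTIP60-11, against 195, 177 and 196 CPM with siControl in HCT116. In SW480 it had 92.9, 81.8 and 86.3 CPM with siTIP60-2 and 121, 118 and 129 CPM with siTIP60-11, against 98.8, 102 and 99.6 CPM with siControl. It was low in every depleted HCT116 library, while in SW480 the siRNAs lay on either side of control, and the difference was −1.27 ± 0.0712 (adjusted p = 7.41e-12). The ERK phosphatase gene DUSP6 and the ETS factor genes ETV5 and ETV4 differed by −1.14 ± 0.0680, −1.05 ± 0.0816 and −0.84 ± 0.0669, and IER3 by −1.20 ± 0.122.

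Adhesion and mesenchymal genes were mixed, and ITGB1 differed between the siRNAs far beyond the spread of replicates. Integrin and matrix genes had 3 with a higher (16.7%) and 8 with a lower response (44.4%) in HCT116 of 18 tested. Mesenchymal genes had 7 lower (46.7%) and none higher of 15, against 18.1% lower and 13.8% higher over all genes. Of the lower genes, 5 of the 8 and 3 of the 7 differed with each siRNA. With siTIP60-2 the median differences were −0.06 (integrin and matrix) and −0.03 (mesenchymal), against −0.06 over all genes. With siTIP60-11 they were −0.40 and −0.49, against −0.05. ITGB1, the beta 1 integrin, had 46.97, 50.4 and 46.9 CPM with siTIP60-2 and 710.3, 720.5 and 723 CPM with siTIP60-11, against 1084, 1017 and 1115 CPM with siControl in HCT116. SW480 libraries had 30.2, 33.2 and 33.04 CPM with siTIP60-2 and 539, 513 and 509 CPM with siTIP60-11, against 452, 444 and 442 CPM with siControl. With siTIP60-2 it lay far below control in both lines, and with siTIP60-11 it lay below control in HCT116 and above it in SW480. ITGA3 fell by 0.79 ± 0.0386 in HCT116 and stood at 0.02 ± 0.0416 in SW480 (adjusted p = 1). The urokinase gene PLAU fell by 1.26 ± 0.0914 in SW480 and stood at −0.05 ± 0.0553 in HCT116, and LAMA3, a laminin chain gene, differed by 1.33 ± 0.124. VIM, the mesenchymal intermediate filament vimentin, was called in opposite directions, from very unequal levels: 1.301 to 2.92 CPM in depleted and 5.25, 6.88 and 5.42 CPM in control HCT116 cells, and 618 to 715 CPM in depleted and 513, 518 and 519 CPM in control SW480 cells. Its responses were −1.62 ± 0.134 in HCT116 and 0.36 ± 0.0571 in SW480. TPM1, a tropomyosin gene, fell in both lines and by 1.08 ± 0.107 more in HCT116 on the log2 scale.

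DNA replication and mitosis genes more often had a lower than a higher response in HCT116. Of 46 DNA replication genes, 17 had a lower and 5 a higher response there (median difference −0.13, which turned to 0.01 with siTIP60-11 alone), and of 36 mitosis genes 17 lower and 4 higher (median difference −0.23). These shares were 37% lower and 10.9% higher for replication and 47.2% and 11.1% for mitosis, against 18.1% and 13.8% over all genes. With each siRNA, 5 replication genes were lower and 1 higher, and 7 mitosis genes were lower and none higher. NDC80, a kinetochore protein gene, fell in both lines, by 0.98 ± 0.0507 in HCT116 and 0.43 ± 0.0571 in SW480. KIF4A, a chromosome-binding kinesin gene, rose by 0.52 ± 0.0561 in SW480 and stood at −0.08 ± 0.0520 in HCT116 (adjusted p = 1). TK1, the thymidine kinase, differed by −0.57 ± 0.0747. Of 26 genes for homologous recombination and Fanconi repair, 7 were lower (26.9%) and 2 higher (7.69%) in HCT116, none with each siRNA, against 18.1% lower and 13.8% higher over all genes tested. Of 12 replication-dependent histone genes, 3 were higher and none lower, among them H2AC6 (1.14 ± 0.136) and H2BC5 (0.76 ± 0.174), whose reads may be shared with near-identical copies.

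The subunits of the TIP60 complex moved in both directions. Of 18 tested, 4 rose and 4 fell in HCT116, 2 rose and 6 fell in SW480, 3 had a higher and 2 a lower response in HCT116, and 5 moved alike (median difference −0.03, of a sign that turned with DESeq2 and with RLE size factors). The shares with a higher (16.7%) and a lower response (11.1%) were not far from the 13.8% and 18.1% of all genes tested. MEAF6, a small scaffold subunit, fell by 0.84 ± 0.0619 in HCT116 and 0.37 ± 0.0676 in SW480, with a difference of −0.47 ± 0.0922 (adjusted p = 0.000326). RUVBL1, an ATPase subunit, fell by 0.31 ± 0.0458 in SW480 and stood at 0.06 ± 0.0435 in HCT116 (adjusted p = 1).

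NRF2 targets, of defence against oxidants, had 9 with a higher and none with a lower response in HCT116 of 16 tested (median difference 0.31). Only 1 of the 9 differed with each siRNA, and the median difference was 0.47 with siTIP60-2 and 0.09 with siTIP60-11. HMOX1, the haem oxygenase, rose by 0.66 ± 0.0637 in HCT116 and stood at −0.29 ± 0.0825 in SW480 (adjusted p = 1), where siTIP60-2 lay below and siTIP60-11 near control. Interferon-stimulated genes had 7 higher and 7 lower of 30, hypoxia and glycolysis genes 6 higher and 7 lower of 27, and autophagy and lysosome genes 7 higher and 6 lower of 20, where 13.8% of all genes tested were higher and 18.1% lower. The interferon list thus had 23.3% in each direction and the hypoxia list 22.2% higher and 25.9% lower. The lysosome list had 35% higher and 30% lower, and in all 3 lists both shares lay above those of all genes. ISG20, an antiviral exonuclease gene, fell by 1.51 ± 0.129 in HCT116 and differed by −1.23 ± 0.156, while SAMD9 rose by 2.58 ± 0.268 in SW480 and differed by −1.82 ± 0.306. VEGFA, the vascular growth factor, fell in both lines and met the rule for moving alike (−1.37 ± 0.0618 in HCT116, −0.99 ± 0.0674 in SW480). ATP6V1H, a subunit of the lysosomal proton pump, fell by 0.89 ± 0.0552 in SW480 and differed by 0.89 ± 0.0771, and the protease gene CTSB went the other way (−0.87 ± 0.0590). Among YAP and TEAD targets 7 of 15 were higher and 2 lower, with AMOTL2 at 1.25 ± 0.0953, and among AP-1 and immediate-early genes 3 of 11 were higher and 3 lower, with EGR1 at −1.06 ± 0.106. Fatty acid synthesis genes had 3 higher and 1 lower of 8, tight junction genes 4 higher and 3 lower of 19 (CLDN4 0.85 ± 0.0739, CLDN7 0.68 ± 0.0712), and intestinal regulators 3 higher and 2 lower of 12. The median differences of the YAP, AP-1, fatty acid, tight junction, intestinal, NF-kappaB, hypoxia and lysosome lists changed sign in some alternatives. Taken relative to the median over all genes, only the NF-kappaB and lysosome lists of these changed sign, in 3 and 2 of 30 alternatives. So did the interferon list in 6, the TIP60 complex list in 3, and the replication, homologous recombination, integrin and mesenchymal lists in 1 each.

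Mitochondrially encoded mRNAs rose in HCT116 for 12 of 13 and in SW480 for 2, and 12 had a higher response in HCT116 (median difference 0.40), with MT-CYB of complex III at 0.99 ± 0.0549 in HCT116 and 0.46 ± 0.0535 in SW480. Only 2 of the 12 differed with each siRNA. Of 45 ribosomal protein genes, 8 (17.8%) had a higher and none a lower response in HCT116, against 13.8% and 18.1% of all genes tested. In 44 of the 45 the difference was above 0 (median 0.22). Leaving out HCT116 control replicate 2, where these genes took 8.92% of counts, the median was 0.39, and on log2(TPM + 1) it was 0.03. The median of the mitochondrial mRNAs was 0.43 without that library. The part of mitochondrial share in the other results was not tested.

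Markers of other cell types were scarce. The summed level of 8 leukocyte markers was 22.7 to 23.5 CPM with siTIP60-2 and 7.83 to 9.43 CPM with siTIP60-11, against 6.17 to 8.69 CPM in control HCT116 cells, and 5.86 to 10.5 CPM over all SW480 libraries. The siTIP60-2 sum was mostly CD68, a lysosomal protein gene also found outside leukocytes (21.03, 22.2 and 21.2 CPM with siTIP60-2 and 5.68, 6.09 and 5.96 CPM with siTIP60-11, against 5.68, 6.88 and 8.01 CPM in control), and CD3E was at 0 there. The 6 fibroblast markers summed to 24.2 to 26.1 and 27.5 to 29.3 CPM in depleted and 19.2 to 21.6 CPM in control HCT116 cells, almost all of it COL1A1, with DCN at 0 in all depleted libraries. In SW480 DCN, LUM, COL1A2 and COL3A1 were at 0 throughout, and 4 endothelial markers never summed above 2.57 CPM in either line. Their part in the results was not tested.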

How the data were processed

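Messenger RNA was profiled in HCT116 and SW480 cells, and 18 of 30 libraries were used. Reads were processed with Trimmomatic 0.33, STAR 2.7.3a and RSEM 1.3.3 on hg38, per the submitters' processing notes (annotation release and strand setting: not given in the sources used here). Expected counts per gene from RSEM, deposited by the authors, were rounded to whole numbers. The authors also deposited TPM values, used in 1 family of alternatives with limma 3.58.1; their FPKM values were not used. Of 60617 gene identifiers, 58444 are in GENCODE 29. Without a known strand setting, reads of a gene and an antisense partner cannot be told apart, and near-identical genes can share reads.

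Genes were filtered by filterByExpr within groups, scaled by TMM and fitted with edgeR 4.0.16 (R 4.3.3) as 6 group means, with robust quasi-likelihood tests. CPM values use the same scaling. P-values were adjusted by the Benjamini-Hochberg method over all 16774 genes tested; thresholds are given where they are first used. The fit was tested on simulated data. Other settings were DESeq2 1.42.0, RLE and upper-quartile factors, no filter and a stricter one, log2(TPM + 1) and log2(TPM + 0.1), all 30 libraries, a replicate block, HCT116 thinned to the depth of SW480, each siRNA alone, each line on its own, likeness margins of 1.3-fold and 2-fold, and leaving out each library.

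The members, gene lists and tests were chosen with earlier results of these data known. Genes named are KAT5, the 10 protein-coding genes with the highest and the 10 with the lowest difference called with each siRNA at a mean of at least 50 counts, 8 genes per direction called in opposite directions or alike, and up to 5 genes per list, plus list members called in opposite directions. ATF4, DDIT3, HSPA5, HSP90B1, XBP1, AXIN2, MDM2, TNFAIP3, ICAM1, DDX21, YPEL1 and other genes beyond that rule were chosen after their values were seen. Some genes and 1 list that this rule names are not reported here. RIGI is listed under its older symbol DDX58.

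Libraries of a group are not stated to come from separate cultures, so p-values measure a spread that may be technical. No libraries held identical values, and within groups replicate pairs differed by a chi-square of 1.47 to 21.3 per gene, above sampling noise. The values of 15.9 and 21.3 were those of HCT116 control replicate 2 with the other controls, and the next highest was 4.55.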

Additional observations from a re-analysis of the deposited data

Results flagged for a closer look

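The difference between the lines was itself tested, as an interaction of line and depletion, and 3 results stood out by that test. The response to TIP60 depletion was higher in HCT116 than in SW480 for 2308 genes and lower for 3040 genes. Among these, 110 genes were called in opposite directions in the lines. Line and culture medium cannot be told apart in these differences. The balance of higher and lower genes depended on the scaling, and with DESeq2 it was 2481 to 2432.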

How the results depend on the processing

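Most counts stayed within 1.5-fold of those reported. Exceptions came from the TPM scale, from using 1 siRNA, from a narrower margin and from leaving out 1 library. On log2(TPM + 1) there were 882 genes higher in HCT116, 51 in opposite directions, 550 alike and 2466 called in HCT116. On log2(TPM + 0.1) these counts were 766, 47, 499 and 2247. With siTIP60-2 alone there were 732 genes in opposite directions, 2525 alike, 7927 called in HCT116 and 7537 in SW480. With siTIP60-11 alone these counts were 696, 2484, 8475 and 7303. With 1 siRNA a gene no longer has to pass with both. A margin of 1.3-fold left 708 genes alike. Leaving out 1 library at a time gave 1993 to 2802 genes higher and 2558 to 3458 lower in HCT116, 75 to 208 in opposite directions, 921 to 1218 alike, 3863 to 4597 called in HCT116 and 2784 to 4025 in SW480; the 208 were without HCT116 control replicate 2, and the cause was not tested. HCT116 thinned to the depth of SW480 gave 88 genes in opposite directions.

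The replicate numbers were not taken to pair the libraries, since not every same-numbered pair correlated over 0.1. Same-numbered libraries had correlations of deviations between −0.03 and 0.23 in HCT116, with 5 of 9 pairs over 0.1 (all 3 of siTIP60-11 with siControl), and between −0.08 and 0.08 in SW480. Differently numbered libraries lay between −0.19 and 0.12 in HCT116 and between −0.08 and 0.11 in SW480. Same-numbered HCT116 libraries thus tended to be more alike, and the main fit leaves this out. With a replicate block the counts were 2461 higher, 3126 lower, 120 in opposite directions, 1211 alike, 4591 in HCT116 and 3579 in SW480.

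Of 198 named genes, 147 kept their call in the 26 to 28 alternatives run for each with both siRNAs, and any called difference kept its direction. Of the 147, 129 did so with each siRNA alone as well. Most of these genes were named for large called differences in these same data, so the tally is no separate support. A kept call includes a difference that was called in neither fit. A difference called in either fit reversed for KLHDC7B (0.39), RHOB (−0.0067) and KIF26B (−0.47) and for RPL14 (−0.057) on log2(TPM + 1), for RHOB (−0.0079) and RPL14 (−0.057) on log2(TPM + 0.1), and for GFPT1 (0.22), BEX2 (0.55) and FADS1 (0.016) with siTIP60-11 alone. In 7 genes a difference called in neither fit changed sign, and ZSWIM5, LFNG and RBBP4 among them are counted in the 147. The cause was not tested. SW480 depth limits genes under a few CPM there.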

Other observations

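Genes of lipid and glucose supply gave a mixed picture. FASN, the fatty acid synthase, had 2316, 2289 and 2422 CPM with siTIP60-2 and 1780.0, 1683 and 1785 CPM with siTIP60-11, against 924, 759.9 and 967 CPM with siControl in HCT116, and 539, 509.7 and 464 CPM with siTIP60-2 and 553, 564 and 599 CPM with siTIP60-11, against 323, 319 and 332 CPM with siControl in SW480. It rose in both lines, more in HCT116 (0.47 ± 0.0856, adjusted p = 0.000163 in edgeR's quasi-likelihood test), but the difference was 0.77 with siTIP60-2 and 0.17 with siTIP60-11. ACACA, which makes malonyl-CoA, rose in both lines with a difference of 0.22 ± 0.0776 (call lost in 9 of 28 alternatives), and the elongase gene ELOVL6 rose by 0.53 ± 0.0532 in HCT116 and stood at −0.22 ± 0.0702 in SW480 (adjusted p = 1). The glucose transporter gene SLC2A1 rose by 0.91 ± 0.0413 in HCT116 and stood at 0.35 ± 0.0401 in SW480 (adjusted p = 0.0515). HK1, a hexokinase, fell by 0.95 ± 0.0462 in HCT116, and PGK1, a kinase of glycolysis, fell by 0.43 ± 0.0373 in SW480. PDK1, which restrains pyruvate dehydrogenase, fell in both lines (−1.22 ± 0.0864 in HCT116, −0.73 ± 0.0874 in SW480).

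Of the synthetase and amino acid supply genes named next, all but RARS1 fell in HCT116. GPT2, the mitochondrial alanine aminotransferase, fell by 1.40 ± 0.0634 in HCT116 and stood at −0.32 ± 0.0692 in SW480 (adjusted p = 0.186). NIBAN1, induced in stress, had 12.3, 13.96 and 14.8 CPM with siTIP60-2 and 6.51, 7.73 and 7.12 CPM with siTIP60-11, against 63.8, 47.4 and 66.1 CPM in control HCT116 cells. In SW480 NIBAN1 had 198, 196 and 172 CPM with siTIP60-2 and 62.9, 61.01 and 62.4 CPM with siTIP60-11, against 179, 188 and 189 CPM in control, so that siTIP60-2 overlapped control there and siTIP60-11 lay far below it. The seryl-tRNA synthetase gene SARS1 fell by 1.41 ± 0.0513 in HCT116 and stood at −0.41 ± 0.0529 in SW480 (adjusted p = 0.163). RARS1, the arginyl-tRNA synthetase, went against its group and rose by 0.40 ± 0.0408 in HCT116. The glutamine transporter gene SLC1A5 fell by 0.45 ± 0.0501 in HCT116 and stood at 0.38 ± 0.0512 in SW480 (adjusted p = 0.405), and the cationic amino acid transporter gene SLC7A1 fell by 0.85 ± 0.0723 in HCT116 and stood at 0.03 ± 0.0755 in SW480.

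NF-kappaB subunits parted. NFKB2 fell by 0.58 ± 0.0516 in HCT116 and stood at 0.22 ± 0.0655 in SW480 (adjusted p = 1), whereas NFKB1 rose in both lines and met the rule for moving alike (0.50 ± 0.0525 in HCT116, 0.86 ± 0.0638 in SW480).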
